A study of Mus musculus with 32 samples.

Results

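The RNA of neurites was compared with the RNA of the soma in untreated wild-type mouse hippocampal neurons. Neurites here means the fraction taken from below a porous membrane, through which axons and dendrites grow. The soma fraction is what stays on its upper side. Markers of other cell types and nuclear RNAs such as Malat1 were also found in the neurite fraction. The comparison used 4 of the 16 RNA-seq libraries in the count table: WT_Soma_Ctrl replicates 1 and 2 and WT_Neurite_Ctrl replicates 1 and 2. Genes were kept when their mean count over these 4 libraries was at least 10, which left 23200 of the 55573 genes in the table.

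The neurons came from newborn C57BL/6 pups, with the tissue of a litter pooled over both sexes and the duplicates taken from distinct litters. All 4 libraries carry an AAV that expresses Cre recombinase and the red marker dTomato from the human synapsin promoter, added at 50000 viral genomes per cell on day 7 in vitro (DIV7). In the wild-type cells the virus has no floxed gene to delete. Synaptic activity was silenced in all of them from DIV14 for 16 h with 1 µM tetrodotoxin (TTX), a sodium channel blocker, and 50 µM D-AP5, an NMDA receptor antagonist, and the cells were harvested at DIV15 without KCl. The upper side of the membrane can also hold neurites that did not cross it, and each library was made from 50 ng of RNA. The 4 libraries held 38093506 to 71394235 assigned counts.

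A neuron keeps most of its mRNA near the nucleus, but some transcripts are carried by motor proteins along microtubules and translated close to synapses. Transcripts of the postsynaptic density and of the translation machinery are well known from dendrites. Messages for secreted and membrane proteins are read on the rough endoplasmic reticulum (ER), which is densest in the cell body. Many long noncoding RNAs stay in the nucleus.

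Levels are relative to the other RNA of the same library. At equal RNA input the amounts of RNA in the fractions were not compared, and the paper reports a larger yield from the soma. On this relative scale, many transcripts of the cytosolic ribosome, the respiratory chain, the postsynaptic density, conventional kinesins and heterotrimeric G proteins were higher in neurites. In the soma, several neuropeptides and the prohormone convertase Pcsk2 were higher. Long noncoding RNAs were found on both sides, with 9 of 38 listed genes higher in each fraction. The 2516 genes of long noncoding biotypes leave out the listed Snhg11, which is annotated as protein-coding. Among them the shares were smaller, at 133 (5.29%) in neurites and 72 (2.86%) in the soma. Of the 23200 genes, 2458 (10.6%) were higher in neurites and 745 (3.21%) were higher in the soma. A gene was called when the edgeR quasi-likelihood test gave an adjusted p of at most 0.05 and the difference was at least 1.5-fold. Among the 15568 protein-coding genes, 1540 (9.89%) were higher in neurites and 545 (3.5%) in the soma. Counts of called list members below are to be read beside these shares. The median log2 change of all genes was -0.02. The TMM scaling sets the bulk of genes near 0, so this median is no finding, and changes are relative to that bulk.

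The neurite replicates differed from each other more than the soma replicates did: over the 14912 genes averaging 100 counts or more, the log2 ratio of the replicates had an SD of 0.364 in neurites and 0.184 in soma. The counts of called genes depended on which libraries entered. Leaving out soma replicate 2 gave 1384 genes higher in neurites and 194 higher in soma. Without neurite replicate 1 the numbers were 3445 and 2094, without soma replicate 1 they were 1639 and 274, and without neurite replicate 2 they were 2934 and 1202. When all 16 libraries shared 1 estimate of spread, edgeR called 0 genes in either direction, and 1174 and 463 genes were past 1.5-fold with an unadjusted p of at most 0.05. The biological coefficient of variation was 0.372 in that fit and 0.13 with the 4 libraries. DESeq2 was run on the 4 libraries only and called 2436 and 620 genes.

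**Figure D1:**
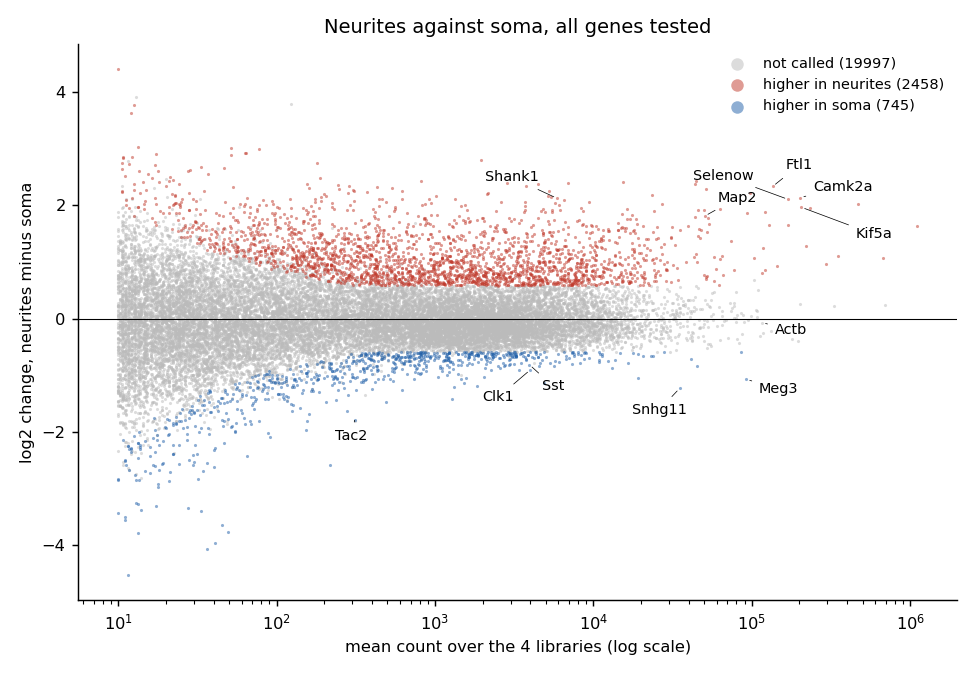
Log2 change (neurites minus soma, y axis) against the mean count over the 4 libraries (x axis, log scale) for the 23200 genes tested. Red points are the 2458 genes called higher in neurites, blue points the 745 called higher in soma and grey points the 19997 not called. Camk2a, Shank1, Map2, Kif5a, Selenow and Ftl1 lie near a log2 change of 2 at mean counts above 3000, and Meg3 and Snhg11 lie below -1.

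Many transcripts of the synapse's receiving side were higher in neurites. Camk2a encodes the alpha subunit of calcium/calmodulin-dependent kinase II, which is abundant in dendritic spines. Its level was 1476 and 1702 normalised counts (CPM, counts scaled to the TMM-adjusted library size) in soma replicates 1 and 2, and 6234 and 7747 CPM in neurite replicates 1 and 2. The groups did not overlap, and Camk2a was higher in neurites by 2.14 ± 0.14 (SE, n = 2 libraries a group) on the log2 scale, with an edgeR adjusted p of 0.000198. Shank1, a large scaffold that ties glutamate receptors to actin, had 50.2 and 41.7 CPM in soma and 188 and 213 CPM in neurites. Its log2 change was 2.12 ± 0.12 (SE, adjusted p = 0.000198). Of the 27 postsynaptic scaffold genes on the list, 15 were higher in neurites and 0 in soma (by edgeR, with 24 of the 27 changes above 0), and the median log2 change was 0.68. Ddn (dendrin, 1.94), Homer2 (1.93), Psd (1.55), Dlgap3 (1.54) and Shank3 (1.43) were among those that rose.

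Dlg4, which encodes PSD-95, had 149 and 146 CPM in soma against 271 and 330.4 CPM in neurites, a log2 change of 1.02 ± 0.11 (SE, adjusted p = 0.000753). Homer1 (log2 change 0.37, adjusted p = 0.0531) was not called. The scaffolds summed to 1923.6 and 1925.0 CPM in soma and to 3434.1 and 3918.4 CPM in neurites. Leaving out a library gave between 14 and 18 called scaffolds in neurites.

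Of 19 mRNAs listed as known from dendrites, 12 were higher in neurites and the median log2 change was 0.86. This list shares 6 of its higher members, such as Shank1 and Ddn, with the scaffolds. Map2, a dendritic microtubule-associated protein, had 457 and 473 CPM in soma and 1406 and 1854 CPM in neurites, a log2 change of 1.81 ± 0.14 (SE, adjusted p = 0.000233). Ppp1r9b (spinophilin, 1.77) and Nrgn (neurogranin, which binds calmodulin, 0.82) rose as well. Not all members were called. Actb, beta-actin, had 2063 and 2052 CPM in soma and 2047 and 1875 CPM in neurites. Its neurite values lay just under its soma values, and the log2 change of -0.07 ± 0.09 (SE) was not called (adjusted p = 0.63). Arc (log2 change 0.51, adjusted p = 0.0228) passed the adjusted p but not 1.5-fold, and Bdnf had a log2 change of -0.16 with an adjusted p of 0.403.

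Of the 17 genes of CaMKII and calmodulin signalling, 6 were higher in neurites and 0 in soma, with a median of 0.38, and Camk2a at the top.

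Few receptor subunits were called. Of 24 ionotropic glutamate receptor and auxiliary subunit genes, 1 was higher in neurites and 2 in soma, with a median log2 change of -0.18. Cnih2, an auxiliary AMPA receptor subunit, was higher in neurites by 1.33 ± 0.12 (SE, adjusted p = 0.000373), at 66.4 and 53.6 CPM in soma against 145 and 157 CPM. Grin1, the obligatory NMDA receptor subunit, was lower in neurites by the called difference of -0.59 (adjusted p = 0.00395), with 148 and 144 CPM in soma and 104 and 90.4 CPM in neurites. Grin1 was not called by DESeq2 or with RLE scaling, since the change lies next to 1.5-fold. Gria1 (-0.17) and Gria2 (-0.19) were not called.

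On the presynaptic side, 6 of 38 synaptic vesicle and SNARE genes (15.8%) were higher in neurites and 2 (5.26%) in soma, with a median of 0.12. Over all protein-coding genes the shares were 9.89% and 3.5%. Cplx2 (complexin 2, a clamp of vesicle fusion) had 1218 and 1312 CPM in soma and 3593 and 4371 CPM in neurites, a log2 change of 1.65 ± 0.12 (SE, adjusted p = 0.000219). Rims1, an active zone organiser, rose by 1.63, and Vamp2, the vesicle SNARE synaptobrevin 2, by 0.78. Synpr (synaptoporin) fell by 0.83. Snap25, with 846 and 965 CPM in soma and 801 and 896 CPM in neurites, overlapped between the fractions.

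**Figure D2:**
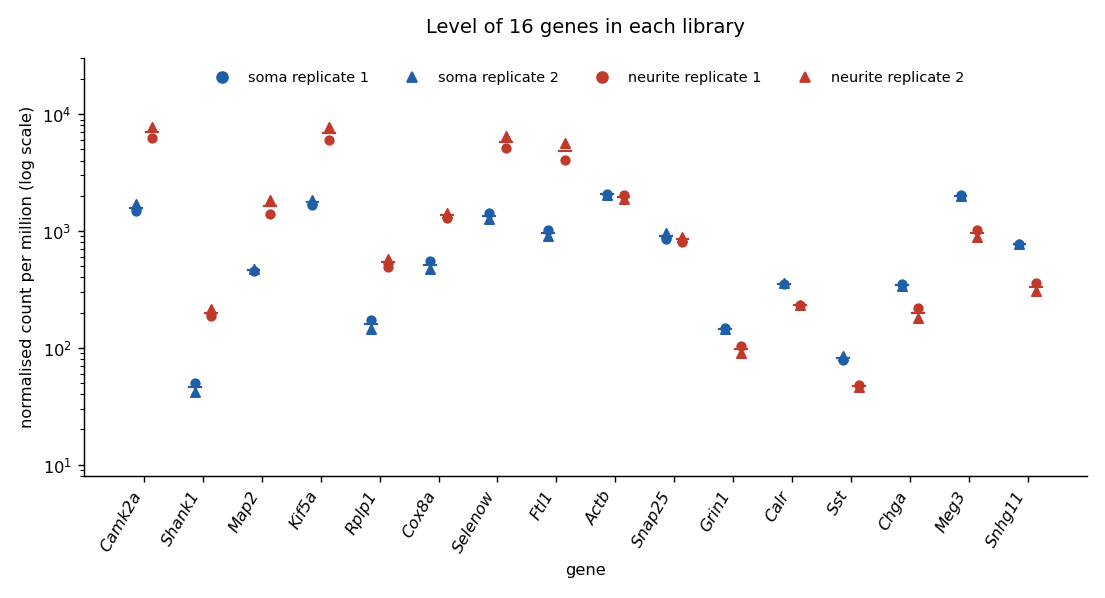
Level of 16 genes in each library, in CPM on a log axis, with soma in blue and neurites in red; circles are replicate 1, triangles are replicate 2 and short bars are the means of the 2 replicates. The 8 genes from Camk2a to Ftl1 lie higher in both neurite libraries, Actb and Snap25 differ little (Snap25 overlaps between the fractions), and the 6 genes from Grin1 to Snhg11 lie lower in both neurite libraries.

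Among the transcripts of kinesins, which move along microtubules, a few genes of high level were higher in neurites. The 3 conventional kinesin-1 heavy chains, Kif5a, Kif5b and Kif5c, move cargo such as mRNA granules towards the plus ends of microtubules. Kif5a was at 1654 and 1856 CPM in soma and 6000.2 and 7719 CPM in neurites, a log2 change of 1.97 ± 0.14 (SE, adjusted p = 0.000219). Kif5b (1.80) and Kif5c (1.65) rose likewise, and so did Kif1a (1.24), a carrier of synaptic vesicle precursors. Over all 40 kinesin genes, 8 were higher in neurites and 2 in soma, and the median was 0.02. The kinesins together took 0.775% and 0.782% of the counts in soma and 1.6% and 1.87% in neurites. Kifc1 (-1.02) and Kif15 (-0.67), kinesins of mitosis, were higher in soma at low counts, and neither was called with a replicate block. Kif4, another kinesin of mitosis, went the other way with the largest rise of the list. It had 1.84 and 2.77 CPM in soma and 7.68 and 14.7 CPM in neurites (2.28 ± 0.34, SE, edgeR adjusted p = 0.00304).

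Among 30 genes of microtubule-associated proteins and neurofilaments, 8 were higher in neurites and 1 in soma, with a median of 0.34. Map1a had 368 and 414 CPM in soma and 1105 and 1325 CPM in neurites, a log2 change of 1.64 ± 0.12 (SE, adjusted p = 0.000219), and Map1b rose by 0.97. The neurofilament light chain Nefl rose by 0.87 and the medium chain Nefm fell by 0.62. The annotated span of Nefm (chr14:68082590-68124846, GRCm38) covers that of Nefl (chr14:68083863-68089095), so the values of this pair are uncertain. Nefm was not called without soma replicate 2 or without neurite replicate 2.

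The tubulins, which build the microtubules, gave 1 of 17 genes higher in neurites and 0 in soma. Of 40 actin regulators, 6 (15.0%) were higher in neurites and 0 in soma, near the 9.89% and 3.5% of all protein-coding genes. Gap43, a growth cone protein, was among them with 391 and 352 CPM in soma and 706 and 776 CPM in neurites, a log2 change of 1.00 ± 0.10 (SE, adjusted p = 0.000589).

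The transcripts of the cytosolic ribosome formed the list with the highest share of members called in neurites among those not made of cell type markers. Of 82 tested ribosomal protein genes, 61 (74.4%) were higher in neurites, 0 were higher in soma, and all 82 fitted changes were above 0. The median log2 change was 0.84, and the changes ran from 0.03 to 1.91. Together they summed to 11950.1 and 10908.7 CPM in soma and to 22265.9 and 25169.5 CPM in neurites. Rplp1, an acidic protein of the ribosomal stalk, had 173 and 144 CPM in soma and 497 and 578 CPM in neurites, a log2 change of 1.76 ± 0.12 (SE, adjusted p = 0.000198). The largest change was that of Rps2, at 463 and 411 CPM in soma and 1469 and 1811 CPM in neurites (1.91 ± 0.13, SE, adjusted p = 0.000198). Rpl10 (0.37, adjusted p = 0.0259) and Rps6 (0.57, adjusted p = 0.00334) did not reach 1.5-fold.

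Ribosomal protein genes have many processed pseudogenes with nearly the same sequence, and reads that fit several places were counted at each of them. Of 221 tested pseudogenes named after an Rpl or Rps gene, 150 were higher in neurites and 0 in soma, with a median of 1.00. These values and those of the parent genes share reads and are not independent.

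Ribosomal protein mRNAs often begin with a terminal oligopyrimidine (TOP) tract, a C at the first base followed by an unbroken run of pyrimidines, through which growth signalling controls their translation. The annotated first 25 bases of the transcript, from RefSeq on GRCm38.p6, are shown for 6 ribosomal protein genes and 1 initiation factor gene that start with such a tract, with the tract in capitals. The first 5 genes were higher in neurites, and the last 2 were not called.
Rpl35: CTCTTTCTCTCgaaccaggctgctt
Rps27: CCTTTCCggcggtgacgacctccct
Rps18: CTCTCTTCCacaggaggcctacacg
Rpl15: CTTCCTTTCCTCTggcggcagccat
Eif3f: CTCTCTTTCTCggcaagatggcttc
Rpl28: CTCTTTCCgtctccggccgccatag
Rps10: CTTCCTTTCCagcctccgcctcgga

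The log2 changes of these genes were 1.68 for Rpl35 (chr2:39005107-39005131, minus strand), 1.26 for Rps27 (chr3:90213624-90213648, minus strand) and 1.07 for Rps18 (chr17:33955641-33955665, minus strand). For Rpl15 (chr14:18270962-18270986, minus strand) the change was 0.63, and for the initiation factor gene Eif3f (chr7:108934415-108934439, plus strand) it was 1.14. Rpl28 (chr7:4792965-4792989, plus strand) was at 0.30 and Rps10 (chr17:27635220-27635244, minus strand) at 0.13. A tract at the start was thus found in genes that were called and in genes that were not.

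A start of this form, with at least 4 pyrimidines after the C, was found at the annotated first base of 13 of 62 ribosomal protein genes with a RefSeq start, and in 2.51% of all 32851 start windows. It was read on the strand of the gene only. Among all protein-coding genes with a start, it stood in 4.25% of the 1176 genes higher in neurites, in 1.64% of the 426 higher in soma and in 2.76% of the 10427 called in neither. When a tract within 5 bases of the start was counted, these shares were 25.4%, 23.9% and 23.2%. Of the 345 protein-coding genes with the tract at the first base, 14.5% were higher in neurites. Outside the ribosomal and factor lists it was 12.1% of 330. Ribosomal protein genes with the tract at the first base had a median log2 change of 0.67, and those without it 0.81. Annotated starts can lie a few bases from the ones used in these cells, so the shares describe the annotation.

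Other parts of the translation machinery divided. Of 12 elongation factors and poly(A)-binding proteins, 5 were higher in neurites and 0 in soma, with a median of 0.48. Pabpc1, the main cytoplasmic poly(A)-binding protein, had 467 and 479.6 CPM in soma and 1229 and 1599 CPM in neurites, a log2 change of 1.58 ± 0.13 (SE, adjusted p = 0.000306). Eef2 (1.15) and Eef1a1 (0.86) rose as well. Among the 48 initiation factors, by contrast, 3 were higher in neurites and 1 in soma, and the median was -0.07. The 78 ribosomal proteins of the mitochondrion gave 10 (12.8%) higher in neurites and 0 in soma, with a median of 0.02. That share is near the 9.89% of all protein-coding genes. The 39 aminoacyl-tRNA synthetases gave 1 and 2.

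Nuclear genes of the respiratory chain, whose proteins make ATP in mitochondria, were higher in neurites at 41 of 81 (50.6%), with 0 higher in soma and a median of 0.61. Cox8a, a small subunit of cytochrome c oxidase, had 549 and 469 CPM in soma and 1298 and 1427 CPM in neurites, a log2 change of 1.42 ± 0.11 (SE, adjusted p = 0.000248). Cox6a1 (1.36), Ndufa3 (1.18) and Cox4i1 (0.88) rose too. The ATP synthase beta subunit gene Atp5b had a log2 change of 0.04 and was not called. Reads that fit several places were counted for these genes too, and any sharing with processed pseudogenes was not tested. The enzymes upstream of the respiratory chain did less. Of 23 citric acid cycle genes 3 (13.0%), and of 16 glycolysis genes 1 (6.25%), were higher in neurites, against 9.89% of all protein-coding genes. By edgeR 0 of either were higher in soma.

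The selenoprotein gene Selenow and the ferritin gene Ftl1 were high in neurites, and no list of selenoprotein genes was made. Selenow, a small selenoprotein, had 1434 and 1265 CPM in soma and 5117 and 6492 CPM in neurites, a log2 change of 2.10 ± 0.14 (SE, adjusted p = 0.000198). Per length it reached 6953 and 8821 FPKM in neurites, among the 10 highest levels of that fraction. Ftl1, the ferritin light chain, rose by 2.33 ± 0.17 (SE, adjusted p = 0.000219), from 1027 and 907 CPM to 4031 and 5718 CPM. The heavy chain Fth1, looked up after the value of Ftl1 was seen, rose by 1.95. Ferritin genes also have processed pseudogenes, with which they share reads.

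G protein signalling showed 10 of 28 subunit genes higher in neurites and 0 in soma, with a median of 0.46. Gng7, a gamma subunit found in forebrain neurons, had 166 and 195 CPM in soma and 731 and 908 CPM in neurites, a log2 change of 2.18 ± 0.13 (SE, adjusted p = 0.000198). Gng13 (1.77), Gnal (the olfactory-type stimulatory alpha subunit, 1.38) and Gng4 (1.36) rose also. The common brain alpha subunit Gnao1 had a log2 change of 0.25 and an adjusted p of 0.0682. Protein phosphatases and their regulators gave 14 and 1 of 69, with Ppp1r16b (2.41), a targeting subunit of protein phosphatase 1, the highest.

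Transcription factors act in the nucleus, and their mRNAs differed by list. Of 372 Zfp zinc finger genes, 17 (4.57%) were higher in neurites and 16 (4.3%) in soma, with a median of -0.08. Of 53 neuronal transcription factors, 14 were higher in neurites and 2 in soma, with a median of 0.41. Sox11 had 311 and 243 CPM in soma and 655 and 832 CPM in neurites, a log2 change of 1.42 ± 0.15 (SE, adjusted p = 0.00077), and Nfix rose by 1.26. Dlx2 (-0.69) and Dlx5 (-0.67), which mark the interneuron lineage, were higher in soma. Lhx5, the second largest called rise among protein-coding genes averaging 100 counts or more, went from 1.26 and 1.10 CPM to 7.32 and 5.91 CPM (2.48 ± 0.23, SE, adjusted p = 0.000497). Lhx5 and Lhx1 (1.91) are known from Cajal-Retzius cells of the hippocampus.

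**Figure D3:**
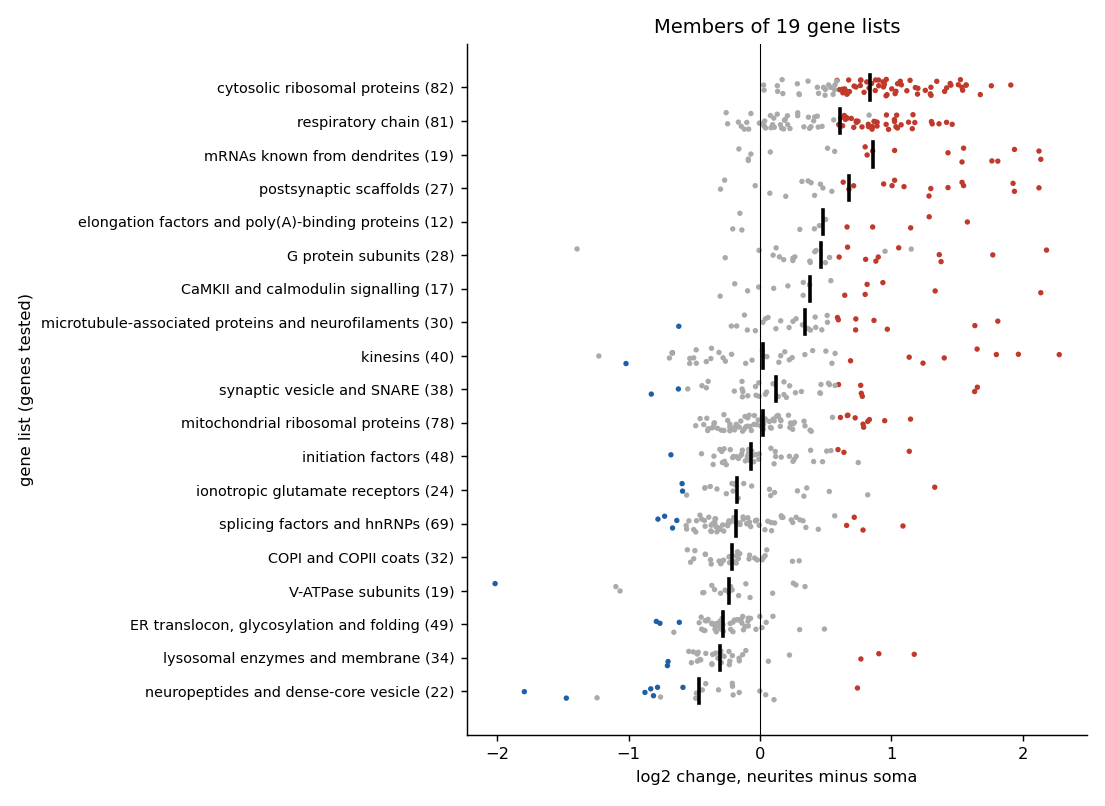
Log2 change (neurites minus soma, x axis) of every tested member of 19 gene lists (y axis, number of genes tested in brackets). Red points were called higher in neurites, blue points higher in soma, grey points were not called and the black bar is the median of the list. The lists run from cytosolic ribosomal proteins, with 61 of 82 in red, to neuropeptides and dense-core vesicle genes, with 7 of 22 in blue.

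Among the lists not made of cell type markers, that of the regulated secretory pathway had the largest share higher in soma. Of 22 genes of neuropeptides and dense-core vesicles, 7 (31.8%) were higher in soma and 1 in neurites, with a median of -0.46. Sst, the peptide somatostatin, had 78.9 and 85.7 CPM in soma and 47.6 and 46.2 CPM in neurites, a log2 change of -0.81 ± 0.09 (SE, adjusted p = 0.000771). Chga (chromogranin A, a granule protein) had 349 and 335 CPM in soma and 219 and 179 CPM in neurites, a change of -0.78. Pcsk2, a convertase that cuts prohormones, fell by 0.83. The peptides Tac2 (-1.79), Vip (-1.47), Tac1 (-0.88) and Pdyn (-0.59) were lower in neurites as well, and Pdyn was not called by DESeq2 or with a replicate block. Vip and Tac1 were not called when either soma replicate was left out. Leaving out a library gave 4 to 8 members higher in soma. The exception was Pcsk1n, an inhibitor of the prohormone convertase Pcsk1, which rose by 0.74 in neurites. Summed over the 22 genes, the level was 4018.0 and 3681.4 CPM in soma and 4176.4 and 3820.1 CPM in neurites. As a share of all counts it was 0.447% and 0.411% in soma and 0.386% and 0.333% in neurites, so the direction of the sum depended on the scaling. Many of these peptides are made by small classes of interneurons, and in bulk RNA fewer cells of a type and less RNA per cell cannot be told apart.

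The general secretory pathway lay to the soma side by smaller steps. Of 49 genes of ER translocation, glycosylation and folding, 44 had a log2 change below 0, but 3 were called higher in soma (6.12%) and 0 in neurites, with a median of -0.28. Dnajb9, an ER cochaperone, had 93.3 and 97.1 CPM in soma and 55.3 and 54.9 CPM in neurites, a log2 change of -0.79 ± 0.08 (SE, adjusted p = 0.000669). Calr, the ER chaperone calreticulin, had 354 and 356 CPM in soma against 233 and 231 CPM, a change of -0.61, which fell short of 1.5-fold when the length trend was removed. Hyou1 (-0.76) was the third, and it lost its call without soma replicate 2 or without neurite replicate 2. Hspa5 (BiP) had a log2 change of -0.34 and was not called. The list gave 7 genes higher in soma without neurite replicate 1.

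The 32 genes of the COPI and COPII vesicle coats gave 0 calls in either direction by edgeR, with 26 of 32 changes below 0 and a median of -0.21. Of 34 lysosomal genes, 2 were higher in soma and 3 in neurites, with 29 changes below 0 and a median of -0.30. Ctsl (cathepsin L) had 140.4 and 131 CPM in soma and 94.5 and 72.0 CPM in neurites, and was lower in neurites by 0.70 ± 0.13 (SE, adjusted p = 0.00722). Without neurite replicate 2 it was not called. Ctsz (1.17), Gusb (0.90) and Npc2 (0.77) were the members higher in neurites. The V-ATPase, which acidifies these compartments, gave 1 of 19 subunits higher in soma and 0 in neurites, with a median of -0.24.

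Nuclear RNA biology was mixed. The 69 splicing factors and hnRNPs gave 4 higher in soma and 4 in neurites, with a median of -0.18. Snrnp70, a core protein of the U1 particle, had 169.8 and 169 CPM in soma and 101 and 96.7 CPM in neurites, a log2 change of -0.78 ± 0.08 (SE, adjusted p = 0.000698). Srsf7 fell by 0.73. Higher in neurites were the neuronal splicing regulators Celf4 (1.09), Nova2 (0.78) and Rbfox2 (0.72), and Celf2 (0.66). Clk1, a kinase of splicing factors, fell from 84.9 and 84.1 CPM in soma to 45.5 and 44.9 CPM in neurites (-0.90 ± 0.08, SE, adjusted p = 0.000397), one of the 5 smallest p on the soma side.

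Long noncoding RNAs lay on both sides. Of 38 chosen for the list and tested, 9 were higher in neurites and 9 in soma. Over all 2516 genes of long noncoding biotypes, 5.29% were higher in neurites and 2.86% in soma. Meg3, an imprinted nuclear RNA, had 2019.7 and 1979 CPM in soma and 1014 and 892 CPM in neurites, a log2 change of -1.07 ± 0.10 (SE, adjusted p = 0.000485). Snhg11 (-1.23), Mir124a-1hg (-1.04), Mirg (-0.87), Kcnq1ot1 (-0.73) and Miat (-0.68) were lower in neurites too. The annotation gives Snhg11 as protein-coding, so it is on the list but not among the 2516 genes. Malat1, a nuclear speckle RNA, had 3428 and 3457 CPM in soma and 2668 and 2697 CPM in neurites. Both neurite values lay below both soma values, but the log2 change of -0.36 (adjusted p = 0.0255) was under 1.5-fold and was not called.

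Norad, a cytoplasmic RNA that binds Pumilio proteins, was higher in neurites, with 1265 and 1329 CPM in soma and 2378 and 3045 CPM in neurites (1.06 ± 0.13, SE, adjusted p = 0.00125). Snhg8 (1.34), Snhg6 (0.98) and Gas5 (0.59), which host small nucleolar RNAs in their introns, rose as well, and Gas5 was not called without neurite replicate 2 or when the KCl-treated WT libraries joined the fit. Reads were counted without strand, so an RNA that overlaps another gene cannot be separated from it.

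Markers of other cells moved with the fractions. Of 11 astrocyte markers, 5 were higher in neurites and 0 in soma. They summed to 1182.9 and 1206.1 CPM in soma, and to 3197.6 CPM in neurite replicate 1 and 2057.4 CPM in neurite replicate 2. Gfap, the astrocyte intermediate filament, had 516 and 528 CPM in soma and 1767 and 1236 CPM in neurites (1.52 ± 0.16, SE, adjusted p = 0.000721), while Slc1a2 and Aqp4 were not called. The median log2 change of the list was 0.78, and 0.19 without neurite replicate 1.

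Fibroblast and vascular markers gave 9 of 12 higher in neurites and 0 in soma, with sums of 47.4 and 42.1 CPM in soma and 156.0 and 194.1 CPM in neurites. Col1a1 had 7.39 and 4.36 CPM in soma, 15.1 CPM in neurite replicate 1 and 48.8 CPM in neurite replicate 2. Rgs5, known from pericytes, had 19.6 and 18.6 CPM in soma and 108 and 91.3 CPM in neurites, with the smallest p of the comparison. Microglia and macrophage markers gave 6 of 12 and 0, at sums of 22.8 to 24.5 CPM in soma and 38.9 to 53.9 CPM in neurites.

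Oligodendrocyte lineage markers gave 2 of 10 and 0, at 88.6 and 99.7 CPM in soma and 159.4 and 157.3 CPM in neurites, and dividing cell markers gave 1 of 8 and 0. Ependymal and choroid plexus markers gave 0 of 6 in neurites and 2 in soma, with 48.9 and 48.8 CPM in soma and 36.5 and 26.4 CPM in neurites. Tmem212 had the largest fall among protein-coding genes averaging 100 counts or more, from 4.92 and 6.10 CPM to 1.33 and 0.422 CPM (-2.58 ± 0.42, SE, adjusted p = 0.00461). No tested marker was at 0 in any of the 4 libraries. Sox10, Cldn5, Ccnb1 and Bub1 had a mean count under 10 and were not tested.

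The 10 neuron markers summed to 3096.8 and 3225.9 CPM in soma and to 3184.3 and 3190.5 CPM in neurites, a scale that is centred on the bulk of the genes. As a share of all counts they were 0.344% and 0.36% in soma and 0.294% and 0.278% in neurites, lower in both neurite libraries. Markers of neurons, the labelled cell type, were thus detected in both fractions. Neurod6, of excitatory neurons, was the only neuron marker called, with a log2 change of 0.87. Gad1 (-0.35) and Slc32a1 (-0.41), of inhibitory neurons, passed the adjusted p but not 1.5-fold. The part of other cell types in the results above was not tested.

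**Figure D4:**
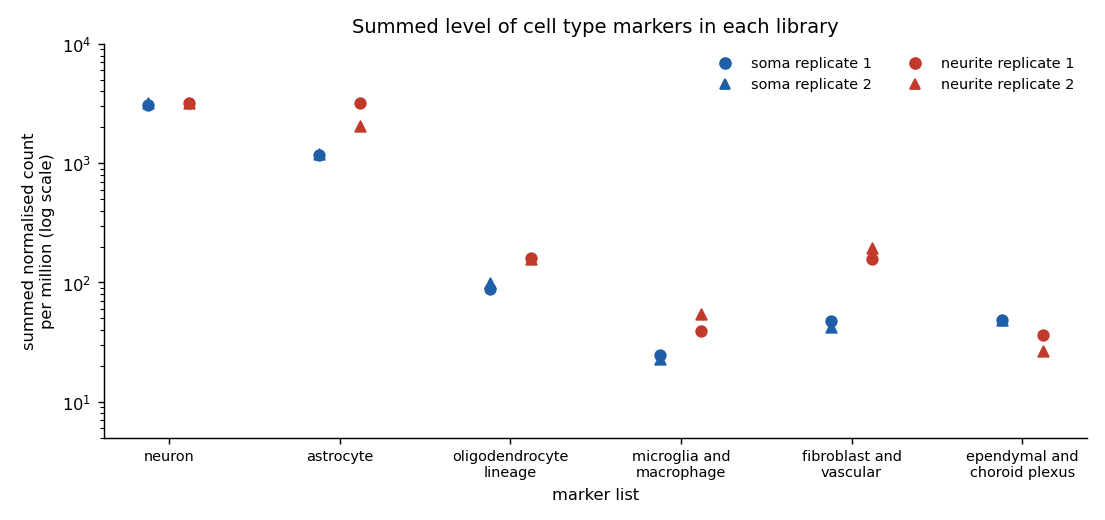
Summed CPM (y axis, log scale) of 6 lists of cell type markers (x axis) in each library; blue is soma, red is neurites, circles are replicate 1 and triangles are replicate 2. Neuron markers lie together at 3096.8 to 3225.9 CPM, and astrocyte, oligodendrocyte, microglia and fibroblast markers lie higher in both neurite libraries.

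Genes higher in neurites had shorter and more GC-rich coding sequences, and a longer median 3' untranslated region (UTR). Their median coding length was 1112 bases, against 1458 bases for genes higher in soma and 1419 bases for protein-coding genes called in neither. The median GC content of the coding sequence was 55.7%, 52.8% and 53.0% in the same order. The median 3' UTR length was 1036, 766 and 929 bases in that order. The 12344 protein-coding genes averaging 100 counts or more were then divided into 5 quintiles. In the quintile with the shortest coding sequences, 493 of 2469 genes were higher in neurites, and in the other quintiles the share was 7.66% to 10.2%. In the quintile richest in GC the share was 18.9%, and in the poorest 5.39%. By 3' UTR length the share was 13.3% in the shortest quintile, 13.4% in the longest and 9.64% to 9.96% between them. Many ribosomal and respiratory chain proteins are short, and their part in these shares was not tested.

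With trends of GC content and length removed from the protein-coding genes, a setting added after the data were seen, 1373 genes were higher in neurites and 614 in soma, against 1542 and 541 in the fit of the same genes without that step. The median log2 change of the ribosomal protein genes was then 0.74, that of the respiratory chain 0.49, that of the scaffolds 0.61 and that of the neuropeptide list -0.58. These 4 medians kept their sign.

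**Figure D5:**
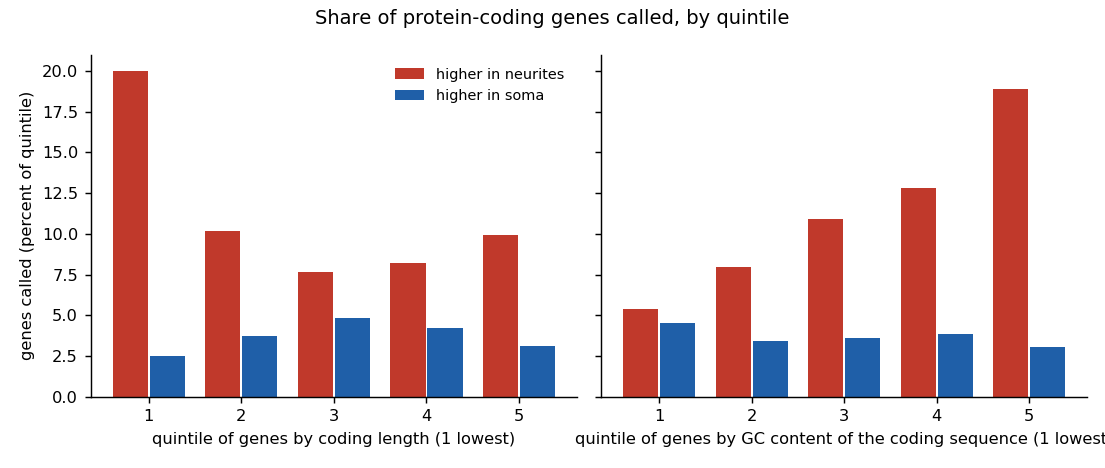
Percent of protein-coding genes averaging 100 counts or more called higher in neurites (red) or in soma (blue) (y axis, from 0), in quintiles of the genes by coding length and by GC content of the coding sequence (x axis, 1 is the lowest). The red bar is highest in the quintile of the shortest coding sequences (493 of 2469 genes), and in the GC panel it runs from 5.39% in the poorest quintile to 18.9% in the richest.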

How the data were processed

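The authors sequenced RNA from both fractions (paired 50-base reads), trimmed the reads with Flexbar, aligned them to mm10 with STAR 2.7.7a and counted fragments on the exons of Ensembl genes with featureCounts 2.0.1, multi-mapping reads included and without a strand option. The deposited counts are raw, and exon lengths come from the same table. The authors also deposited a list of DART-seq (C-to-U editing) sites, whose value is a mean editing fraction. Their tables of fold changes and p-values were not used.

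Here edgeR 4.0.16 (R 4.3.3; TMM scaling, two-sided quasi-likelihood F-test, Benjamini-Hochberg adjustment) was fitted to the 4 libraries without a replicate block, for genes averaging 10 counts or more and without the 37 mitochondrially encoded genes, which hold 0 counts. SE is the log2 change divided by the root of F. DESeq2 1.42.0 was an alternative. Symbols, biotypes and lengths are from GENCODE M21 (GRCm38), which holds 55394 of the 55573 genes. The genes, lists and alternatives were chosen with earlier results of these data known. Named by rule were core members and the largest called rise and fall of each list, the 10 largest changes each way among protein-coding genes averaging 100 counts or more and moving alike in both same-numbered pairs, the 5 smallest p each way the 10 highest levels per length in each fraction and the 2 largest changes in each described family or biotype; other named members were chosen after their values were seen. With 2 libraries a group, p-values measure the spread between these samples.

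Soma and neurite libraries share replicate numbers. The authors paired the fractions of an insert in a further analysis, and drew duplicates from distinct litters, but neither the methods nor the labels say that a number marks an insert. The deviations of same-numbered libraries correlated at -0.142 over genes averaging 100 counts or more, which gives no sign of pairing. The methods of the authors do not say whether their own test of neurites against soma had a block, and the fit here has none. Whether the numbers pair the samples is not known. Calls lost with the block are given beside the genes named. Some genes are not reported here.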

Additional observations from a re-analysis of the deposited data

How the results depend on the processing

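Of 788 named or listed genes called in the 4 libraries, 0 changed direction under any alternative in which they were tested, but many lost their call: 788 with all 16 libraries, 329 without soma replicate 2, 280 without soma replicate 1, 119 with 8 WT libraries, 110 without neurite replicate 2, 76 with GC and length trends removed, 73 with DESeq2, 70 with the replicate block and 42 without neurite replicate 1. The 788 genes were chosen by their change in the 4 libraries. Each alternative compared the same libraries or a part of them, so a change of direction was unlikely from the start and its absence is no support. With all 16 libraries 0 genes were called in either direction by edgeR. The replicates of the Mettl3 KO groups differed by an SD of 0.536 to 1.31 on the log2 scale, and the smallest adjusted p was 0.119. Without a filter on low counts 1222 genes were higher in soma. Among protein-coding genes alone 1542 were higher in neurites, and 1373 with GC and length trends removed, in part because fewer genes were tested. Leaving out 1 library gave 1384 to 3445 genes higher in neurites and 194 to 2094 higher in soma. DESeq2, RLE scaling, TMM on protein-coding genes, a mean count of at least 100, the 8 WT libraries with and without KCl, and the removed length trend left both counts within 1.5 times, at 2091 to 2500 and 620 to 1054. In 8 WT libraries 66.5% of calls were in neurites, against 76.7%. The KCl-treated libraries formed groups of their own in that fit and entered only the scaling and the estimate of spread. The median log2 change of all genes was then -0.098, against -0.018 in the 4 libraries.

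A replicate block by number gave 2163 genes higher in neurites and 577 in soma, and crossing the numbers gave 2684 and 1015.

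Of 59 list medians, 38 moved past their replicate spread in the 8 WT libraries, 18 at a mean count of 100 or more, 16 with GC and length trends removed, 9 with all 16 libraries, 5 with the length trend removed, 2 with the replicate block and 14 to 23 when 1 library was left out. Those of the main lists were as follows. In 8 WT libraries the ER list was at -0.36 and G protein subunits at 0.38. The median of all genes also lay lower in that fit, at -0.098 against -0.018, so these moves are not particular to the lists. At a mean count of at least 100, G protein subunits were at 0.40 and fibroblast and vascular markers at 2.08. With GC and length trends removed the respiratory chain was at 0.49. Leaving out 1 library gave -0.30 to -0.20 for the ER list, 0.37 to 0.52 for G protein subunits, 0.76 to 1.00 for mRNAs known from dendrites, 0.19 to 1.19 for astrocyte markers and 0.84 to 1.42 for microglia and macrophage markers. The cause was not tested. Depth was 38093506 counts in the smallest library, and 3.82% of genes averaging 10 to 100 counts were called higher in neurites, against 266 of 1062 above 10000.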

Other observations

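Protein-coding genes were also grouped by the stem of the symbol into 213 families of at least 10 tested genes. The highest shares in neurites were those of Ndufa (10 of 14, 71.4%), Rpl, Rps, Cox (13 of 24, 54.2%), Gng and Ndufb, which repeat genes of the respiratory chain, ribosome and G protein lists. Outside the lists, Samd had 6 of 12 (50.0%). On the soma side the serotonin receptor family Htr had 3 of 11 (27.3%), Prpf, of splicing, 3 of 13, and Ints, of the Integrator complex, 3 of 15. Of 36 Ddx helicases, 5 were higher in soma and 0 in neurites, and of 56 orphan Gpr receptors 8 and 1.

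Among biotypes, processed pseudogenes were higher in neurites at 712 of 3156 (22.6%). Entries still to be experimentally tested (TEC), many of them single-exon, were higher in soma at 95 of 1329 (7.15%) and in neurites at 0.828%. The 3 highest levels per length in the soma, Gm10925, Gm28437 and Gm29216, were those of unprocessed pseudogenes that resemble mitochondrial genes, and the same 3 led in neurites. Gm29216 had 4053 and 3753 CPM in soma and 13438 and 18298 CPM in neurites. The mitochondrially encoded genes hold no counts in the table, and the source of the reads on these copies was not tested.

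The share of genes with a DART-seq site, pooled over the series, depended on the count. Among protein-coding genes with mean counts of 1000 to 3000, 59.1% of 301 genes higher in neurites, 30.9% of 123 higher in soma and 46.6% of 3330 called in neither held a site. At 3000 to 10000 the shares were 73.8%, 89.6% and 80.2%, the other way round. No test was made.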
